A study of Mus musculus with 622 samples.

Results

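Immediate early genes and heat shock genes were followed through single islet cells of the mouse. The members were 38 genes listed by function, of 44448 genes in the table, and all 38 were found. Of these, 31 were early-response genes and 7 were heat shock genes. Levels were RPKM, a read count divided by the length of the gene and the depth of the library, so levels of genes of unequal length can be set side by side. Each library was 1 cell, captured on a Fluidigm C1 microfluidic chip, from pancreatic islets of wild-type C57BL/6 mice, a common inbred strain. No treatment, allele, age, animal or chip was named in the labels, so the 622 cells stood for 1 sample and no difference between groups of cells was tested.

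Cells entered the comparison when at least 1000 genes reached 1 RPKM, which 593 of 622 did. They were then grouped by the hormone that held at least 90% of the summed RPKM of Ins1, Ins2, Gcg, Sst and Ppy. This gave 395 insulin, 33 glucagon, 13 somatostatin and 11 pancreatic polypeptide cells, the hormones of beta, alpha, delta and PP cells. The other 141 passing cells held mixed hormones and entered none of the 4 groups, and no doublet caller was run. Of 10 beta markers, the insulin genes among them, 9 stood at 1 RPKM or more in at least 50% of insulin cells. The same held for 7 of 8 alpha markers in glucagon cells and for 4 of 6 delta markers in somatostatin cells. It also held for 3 of 6 PP markers in pancreatic polypeptide cells, where Ppyr1 and Aqp4 were in no cell. The PP count was 3 of 6 in each other group too, so it does not set pancreatic polypeptide cells apart. Each of these lists holds the hormone gene that defined its group, so part of each count was fixed by the grouping. No macrophage, endothelial, stellate or acinar marker reached 50% of the cells of any group. Of 8 ductal markers, 2 or 3 did in each group, with median sums of 77.9 RPKM in insulin and 380 RPKM in pancreatic polypeptide cells. The summed RPKM of the 10 macrophage markers went from 0 through a median of 2.76 to 22366 in insulin cells. Its highest values were 13428 in glucagon, 14870 in somatostatin and 396 in pancreatic polypeptide cells. Single cells of the small groups also held high sums of other lists. These reached 3004 RPKM for acinar markers in somatostatin cells, and 5072 for stellate and 13864 for ductal markers in pancreatic polypeptide cells. Median mapped reads per cell, recovered from the RPKM steps, were 1119227 over all cells.

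Immediate early genes are switched on within minutes of a stimulus, without new protein synthesis, by factors that already wait at their promoters. They encode transcription factors such as Fos, Jun and Egr1, and also the phosphatases and RNA decay factors that end the response. Heat shock genes are switched on by heat shock factors when proteins misfold and encode chaperones that refold or hold them. Both kinds are known to respond to the enzymes, warmth and handling by which a tissue is taken apart into single cells, and in beta cells early-response genes also answer glucose and calcium entry.

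The 250 bases before the start site are shown for members on which the results below turn, because matches to motifs of both programmes lie there. Sequences and coordinates are those of RefSeq on the mouse build GRCm38.p6, where 27 of 31 early-response and 6 of 7 heat shock members were matched. Bases run 5′ to 3′ on the strand of the gene, and capitals mark a match to a motif. Fos, at chr12:85473640-85473889 on the plus strand, has the TATA box TATAAA in capitals. Dusp1, at chr17:26508473-26508722 on the minus strand, and Btg2, at chr1:134079156-134079405 on the minus strand, have the cyclic AMP response element TGACGTCA. Zfp36, at chr7:28379229-28379478 on the minus strand, has a CArG box, the motif of serum response factor.
Fos: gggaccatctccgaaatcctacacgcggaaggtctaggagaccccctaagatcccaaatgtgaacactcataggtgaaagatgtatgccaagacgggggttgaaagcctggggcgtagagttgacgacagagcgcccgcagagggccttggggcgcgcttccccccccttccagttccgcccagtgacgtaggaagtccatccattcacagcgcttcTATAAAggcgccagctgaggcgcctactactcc
Dusp1: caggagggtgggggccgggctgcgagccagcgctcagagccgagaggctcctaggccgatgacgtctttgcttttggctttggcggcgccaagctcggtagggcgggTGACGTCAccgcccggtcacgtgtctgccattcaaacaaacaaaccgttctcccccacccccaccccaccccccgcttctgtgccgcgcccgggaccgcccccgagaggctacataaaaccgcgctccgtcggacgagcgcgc
Btg2: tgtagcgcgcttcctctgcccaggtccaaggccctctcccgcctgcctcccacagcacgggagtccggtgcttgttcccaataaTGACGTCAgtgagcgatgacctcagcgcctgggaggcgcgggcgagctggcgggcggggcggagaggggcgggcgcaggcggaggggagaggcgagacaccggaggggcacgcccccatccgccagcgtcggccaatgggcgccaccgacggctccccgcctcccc
Zfp36: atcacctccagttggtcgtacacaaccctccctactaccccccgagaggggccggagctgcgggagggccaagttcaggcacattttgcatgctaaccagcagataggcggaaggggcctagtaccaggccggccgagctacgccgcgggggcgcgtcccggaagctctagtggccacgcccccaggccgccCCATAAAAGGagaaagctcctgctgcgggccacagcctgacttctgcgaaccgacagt

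For the heat shock members the capitals mark 2 heat shock units back to back, GAANNTTC or TTCNNGAA, where N is any base. Hspa1a lies at chr17:34972157-34972406, Hspa1b at chr17:34959239-34959488 and Hsph1 at chr5:149636337-149636586, all on the minus strand.
Hspa1a: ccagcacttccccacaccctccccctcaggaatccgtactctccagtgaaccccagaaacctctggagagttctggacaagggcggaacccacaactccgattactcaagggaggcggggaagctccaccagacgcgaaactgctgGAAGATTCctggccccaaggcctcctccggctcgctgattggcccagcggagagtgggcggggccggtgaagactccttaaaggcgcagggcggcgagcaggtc
Hspa1b: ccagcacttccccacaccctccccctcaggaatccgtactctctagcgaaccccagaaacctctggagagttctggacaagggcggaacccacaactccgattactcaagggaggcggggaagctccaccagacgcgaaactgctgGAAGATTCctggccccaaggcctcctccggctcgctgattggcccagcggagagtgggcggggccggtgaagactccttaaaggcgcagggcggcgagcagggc
Hsph1: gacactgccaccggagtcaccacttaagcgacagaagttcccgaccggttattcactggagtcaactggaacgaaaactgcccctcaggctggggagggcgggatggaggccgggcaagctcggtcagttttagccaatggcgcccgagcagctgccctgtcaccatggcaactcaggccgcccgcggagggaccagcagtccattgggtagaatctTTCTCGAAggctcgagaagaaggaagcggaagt

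The windows of Hspa1a and Hspa1b were the same at 247 of 250 bases, with GAAGATTC at bases -104 to -97 in both, counted with the start site as 0. Their transcripts are also near copies: 1716 of 2918 windows of 50 bases in Hspa1a (58.8%) were found in Hspa1b. Reads could therefore be split between these genes in a way that the counting decided, and the level of each alone is uncertain. Paired units GAANNTTC or TTCNNGAA were found, from 250 bases before to 50 after the start on either strand, in 5 of 6 heat shock members and 3 of 27 early-response members, against 17.0% of 27025 genes. The cyclic AMP response element TGACGTCA was in 4 of 27 early-response members (Btg2, Dusp1, Maff and Ppp1r15a), against 2.03% of genes. CArG boxes were in Egr2 and Zfp36, against 1.81% of genes, and TATAAA was in 8 of 27 early-response members, against 15.7%. The AP-1 letters TGACTCA or TGAGTCA were in no member window, against 5.95% of genes. The full heat shock element, a paired unit with 1 more unit beside it, was found in Hsph1 alone among the members and in 0.66% of genes. In Hsph1 it lay at bases 36 to 48 after the start, beyond the sequence shown. These are matches of letters in a window, not binding sites.

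In insulin cells the early-response programme was seen in nearly every cell, at a high level in few genes. Of the 31 early-response members, 15 reached 1 RPKM in at least 50% of the 395 insulin cells, 10 in 10 to 50% and 6 in fewer than 10%. An insulin cell held between 1 and 26 of them at 1 RPKM or more, with a median of 14. Only Fos, Egr1 and Btg2 had medians over 100 RPKM.

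**Figure D1:**
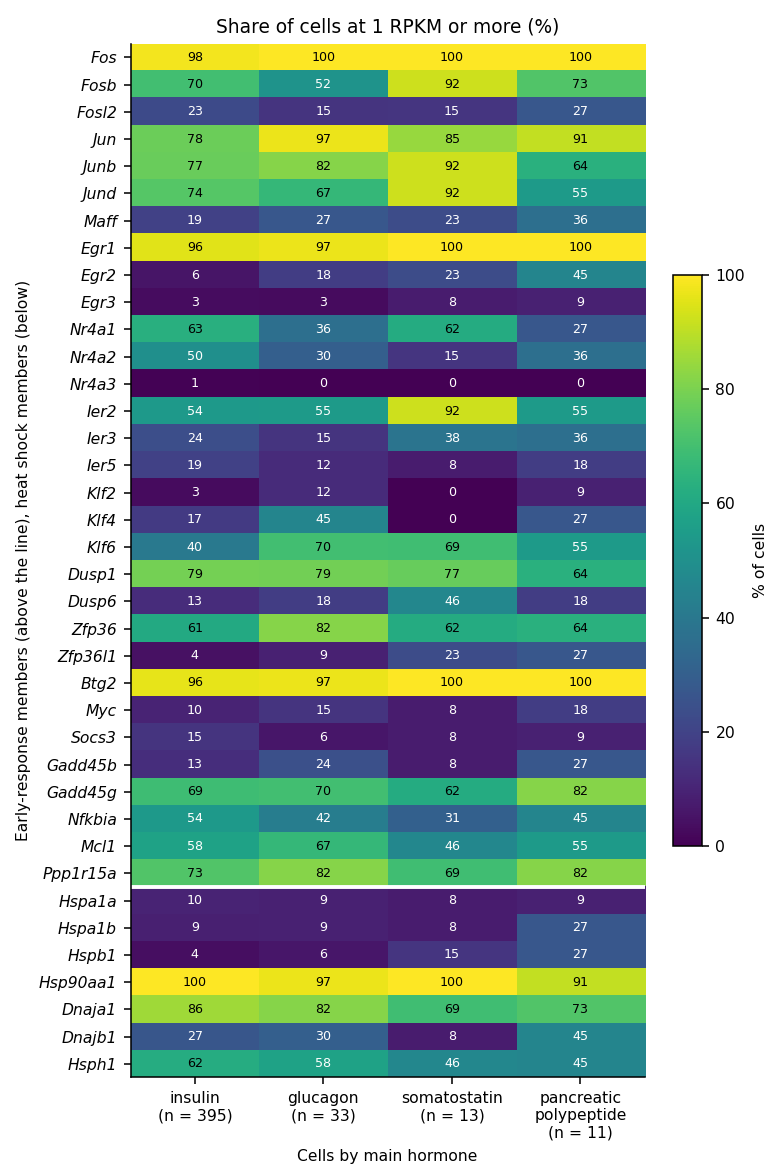
Share of cells at 1 RPKM or more, in percent, for each of the 38 members (rows) in the 4 hormone groups (columns), with the number of cells under each group name. Fos, Egr1, Btg2 and Hsp90aa1 stood above 90% in every group, while Egr3, Nr4a3, Klf2 and Hspb1 were at 27.3% or less in all 4.

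Among the AP-1 genes, whose products pair into 1 transcription factor, Fos went from 0 through a median of 334 to 2020 RPKM in insulin cells and reached 1 RPKM in 388 of 395 (98.2%, exact Clopper-Pearson 95% interval 96.4 to 99.3). Such intervals cover counting error only. Its partners were far lower: Jun had a median of 10.0 and a highest cell of 342 RPKM, Junb 7.63 and 517, and Jund 2.32 and 62.0. Fosb, a close relative of Fos, had a median of 8.00 and a highest cell of 381 RPKM. These 4 genes reached 1 RPKM in 69.9 to 77.7% of insulin cells, whereas Fosl2 did so in 22.5% and Maff, a small Maf factor, in 19.2%.

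Of the Egr zinc finger factors, Egr1 had lowest, median and highest values of 0, 228 and 1376 RPKM and reached 1 RPKM in 95.7% of insulin cells. Egr2 and Egr3 did so in 5.57 and 3.29%. The Nr4a orphan nuclear receptors were at lower levels: Nr4a1 in 63.0% of insulin cells with a median of 2.86 RPKM, Nr4a2 in 49.6% with a median of 0.94, and Nr4a3 in 3 cells (0.76%). Ier2 was at 1 RPKM or more in 53.9%, Ier3 in 24.1% and Ier5 in 19.2% of insulin cells. The Krüppel-like factors Klf2, Klf4 and Klf6 were at 3.04, 17.0 and 40.3%.

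Among the genes that end the response, Btg2, which recruits RNA deadenylases, reached 1 RPKM in 96.5% of insulin cells, with a median of 243 and a highest cell of 1792 RPKM. Dusp1, a phosphatase of MAP kinases, did so in 79.0%, with a median of 53.2 and a highest cell of 2759 RPKM. Its relative Dusp6 was at 12.7%. Zfp36, which binds AU-rich RNA and speeds its decay, was at 60.8% with a median of 4.81 RPKM, and Zfp36l1 at 4.30%. Of the stress and survival members, Ppp1r15a, a regulator of the phosphatase that acts on eIF2 alpha, had a median of 15.1 and a highest cell of 1094 RPKM. Gadd45g had a median of 8.11 RPKM against 13.2% of cells for Gadd45b. Mcl1, Nfkbia and Myc were at 57.7, 53.9 and 9.87% of insulin cells. Reads of Ppp1r15a, Egr2, Nr4a2, Dusp6 and Dnaja1 may include those of overlapping annotated genes.

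The heat shock members differed widely in how many insulin cells held them. Hsp90aa1, an HSP90 chaperone, was at 1 RPKM or more in all 395 insulin cells, with a median of 117 and a highest cell of 1183 RPKM. Dnaja1, a co-chaperone of HSP70, was at 85.8% with a median of 24.9, and Hsph1, a nucleotide exchange factor of HSP70, at 61.8% with a median of 3.73 RPKM. Dnajb1, the co-chaperone of the heat-induced HSP70, was in 106 insulin cells (26.8%), at a median of 17.7 RPKM within those cells. The inducible HSP70 genes Hspa1a and Hspa1b were in 39 (9.87%) and 34 (8.61%) insulin cells, at medians of 36.8 and 34.7 RPKM within them, and Hspb1, a small heat shock protein, in 15 (3.80%). Of the 39 Hspa1a cells, 27 held Hspa1b, with which it shares reads, and 28 held Dnajb1, found in 26.8% of all insulin cells. Hsph1 was in 37 of the 39 and Hspb1 in 3.

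Most insulin cells with Hspa1a or Hspa1b carried neighbouring numbers in their titles. The cell titles are numbered 1 to 622, and the labels do not say what the numbers stand for. Cut into 20 runs of 32 numbers, with 7 to 26 insulin cells each, Hspa1a reached 1 RPKM in 65.2% of insulin cells numbered 449 to 480 and in 82.4% of those numbered 481 to 512. It did so in 10.5% of those numbered 513 to 544 and in 0 to 9.09% of each of the other runs. Hspa1b stood at 47.8, 82.4 and 10.5% in the same 3 runs. Dnajb1 stood at 60.9 and 88.2% in the first 2 of them, with 48.0% as the highest of the others. Of all insulin cells at 1 RPKM or more, 29 of 39 for Hspa1a, 25 of 34 for Hspa1b and 29 of 106 for Dnajb1 were among the 40 numbered 449 to 512. The range was picked after these values were seen, so its heat shock values are given as a description.

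**Figure D2:**
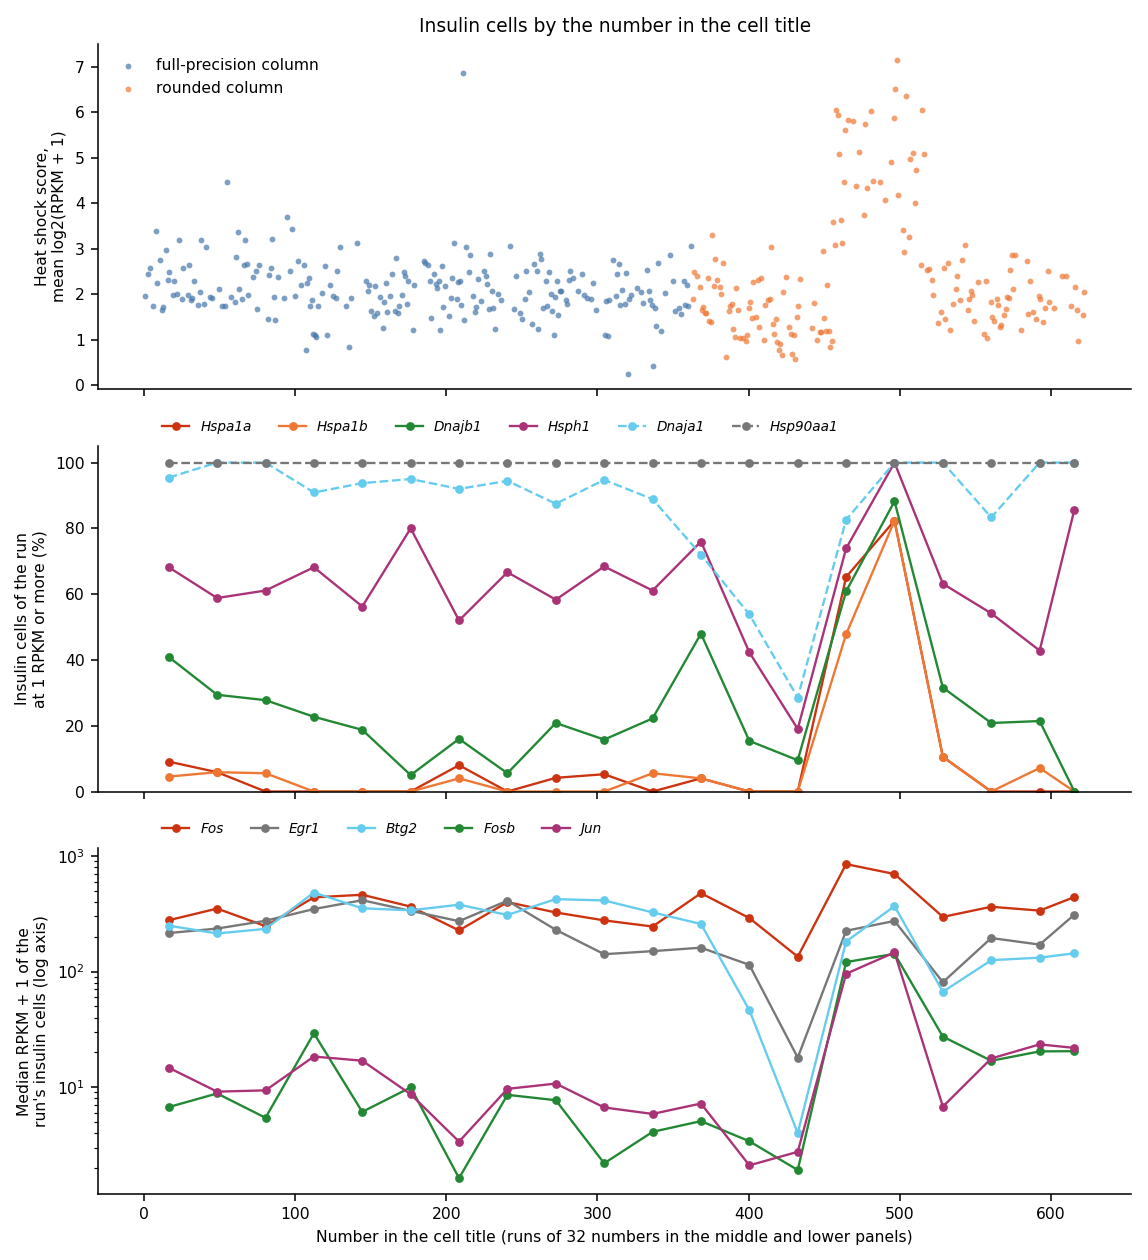
Upper panel: heat shock score (mean log2(RPKM + 1) of the 7 heat shock members) of each of the 395 insulin cells against the number in its title, coloured by the number format of its column. Middle and lower panels: share of insulin cells at 1 RPKM or more and median RPKM + 1 (log axis) in 20 runs of title numbers, for 6 heat shock and 5 early-response members. The shares of Hspa1a, Hspa1b and Dnajb1 and the medians of Fos, Fosb and Jun are highest in the runs 449 to 480 and 481 to 512, while the medians of Egr1 and Btg2 there lie within the span of the other runs.

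The run means of the more widely held heat shock genes were also highest there. In the runs 449 to 480 and 481 to 512, mean Hsp90aa1 was 215 and 288 RPKM against 81.3 to 205 in the other 18 runs. Mean Dnaja1 was 75.8 and 138 RPKM against 15.3 to 75.4, and mean Hsph1 80.0 and 98.1 against 2.65 to 53.4. By the median, Hsph1 again stood above all other runs (75.7 and 70.5 against at most 8.64 RPKM). Hsp90aa1 (153 and 217 against at most 190) and Dnaja1 (38.5 and 116 against at most 50.0) did so only in the run 481 to 512. All 6 heat shock members whose mean over insulin cells reached 1 RPKM had both run means above those of the other 18 runs, as did 0.452% of 11738 such genes in the table. The range was picked after heat shock values were seen, so this count is a description and no test.

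Of the early-response members, 4 of 29 also had both run means above the other 18 runs, against 0.452% of genes. All 4 were AP-1 genes: Fos, Fosb, Jun and Jund. This count is a description too, since the runs were chosen after the data were seen. Median Fosb was 120 and 142 RPKM in the runs 449 to 480 and 481 to 512, against 0.63 to 28.2 in the other 18. Median Jun was 94.8 and 145 RPKM against 1.10 to 22.4, and median Fos 850 and 698 against 134 to 476. Median Egr1 was 224 and 273 RPKM against 17.0 to 414, but its means of 411 and 410 were level with the highest other run, at 411. Median Dusp1 was 101 and 108 RPKM against 0.36 to 120, with means of 178 and 203 against at most 200. Btg2 lay within the other runs by the median (181 and 368 against 3.01 to 482 RPKM) and by the mean (302 and 405 against 139 to 515). So did Junb by the mean, at 18.8 and 16.9 RPKM against 5.49 to 58.4. None of the 29 had both run means below the other 18, as 1.99% of genes had.

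Outside the members, Rgs2 was the only 1 of 39 further early-response genes with both run means above the others. Hspb8 and Dnajb4 were the only 2 of 28 further heat shock genes, against 0.452% of all genes. Cells outside the insulin group with the same numbers also held inducible HSP70: Hspa1a reached 1 RPKM in 6 of the 8 other passing cells numbered 449 to 480 and in 5 of the 14 numbered 481 to 512. Median mapped reads of the insulin cells in these 2 runs were 1366055 and 1107080, within the span of the other runs, and median genes at 1 RPKM were 3795 and 4256. Whether the numbers follow a chip, a day or an animal was not tested, since no label names one.

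Outside the numbers 449 to 544, both HSP70 genes were rare. Hspa1a was at 1 RPKM or more in 8 of 336 insulin cells (2.38%) and Hspa1b in 7 (2.08%), against 71 (21.1%) for Dnajb1 and 198 (58.9%) for Hsph1. Even so, 1 insulin cell, numbered 211, had a heat shock score of 6.87, with Hspa1a at 92.4, Dnajb1 at 175 and Hsph1 at 337 RPKM. Its early-response score of 2.11 lay near the median of 2.20 over insulin cells.

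The question of whether both programmes are high in the same insulin cells was then put to scores. Each score was the mean log2(RPKM + 1) over its members. The early-response score went from 0.09 through a median of 2.20 to 4.34 in insulin cells and the heat shock score from 0.26 through 2.00 to 7.16. Over the 395 insulin cells, Spearman's rho between the scores was 0.32 and Pearson's r was 0.34, also without the 2 cells whose early-response scores lay farthest from the median. These points share cells, depth and gene detection: the number of genes at 1 RPKM had a rho of 0.51 with the early-response score and 0.24 with the heat shock score. Among the 99 insulin cells in the top 25% by early-response score, 39 (39.4%, 95% interval 29.7 to 49.7) were also in the top 25% by heat shock score.

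**Figure D3:**
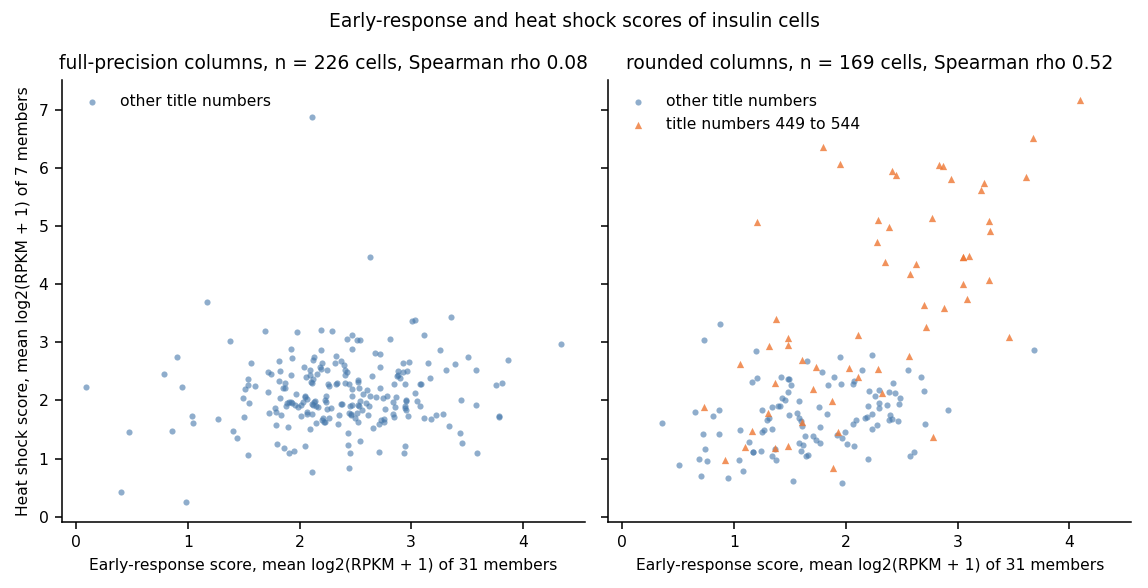
Early-response score (x axis, mean log2(RPKM + 1) of 31 members) against heat shock score (y axis, the same of 7 members) for each insulin cell, in the columns written at full precision (left) and rounded to 4 decimals (right). Orange triangles are the cells numbered 449 to 544, which hold the highest heat shock scores of the right panel. Spearman's correlation is 0.08 on the left and 0.52 on the right.

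The table holds columns of 2 number formats, and the correlation lay mainly in one of them. Their insulin cells also differed in depth, with median reads of 809397 at full precision and 1692816 rounded. Median genes at 1 RPKM were 5707.5 and 4140, and median hormone shares 39.0 and 53.9%. The median early-response scores were 2.37 and 1.88. The part of these in the difference between the formats was not tested. In the 226 insulin cells of the columns written at full precision, rho was 0.08 and the shared top 25% held 18 of 57 cells (31.6%, 19.9 to 45.2). In the 169 insulin cells of the columns rounded to 4 decimals, rho was 0.52 and the shared top 25% held 27 of 43 (62.8%, 46.7 to 77.0). All cells numbered 449 to 544 are in the rounded columns, and without them rho in those columns was 0.29 over 110 cells. Over all insulin cells without those numbers it was 0.26 (n = 336), with a shared top 25% of 29 of 84 (34.5%, 24.5 to 45.7). In the rounded columns without them, the shared top 25% held 9 of 28 (32.1%, 15.9 to 52.4). If the scores were unrelated, a share near 25% would be found. Without those numbers, the number of genes at 1 RPKM had a rho of 0.61 with the early-response score and 0.43 with the heat shock score. In the rounded columns alone these were 0.63 and 0.41. With scores centred within the 20 runs of title numbers, the correlation between the scores was 0.18. Within single runs, which hold as few as 7 insulin cells, rho ranged from -0.40 to 0.79 around a median of 0.12. It was above 0 in 13 of 20. It was 0.69 in the 23 insulin cells numbered 449 to 480 and 0.32 in the 17 numbered 481 to 512.

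Member by member, the early-response genes followed each other. Each member at 1 RPKM or more in at least 10% of insulin cells was set against the score of the rest of its list. A rho of 0.2 or more was reached by 20 of 25 early-response members, against 18.1% of 11216 genes with the early-response score. In the full-precision columns it was 18 of 26, against 4.51%, and in the rounded columns 16 of 23, against 19.2%. The highest were Btg2 at 0.48, Egr1 at 0.46, Dusp1 at 0.45, and Fos and Jun at 0.44. Between members, rho was 0.51 for Fosb with Jun (0.46 at full precision, 0.58 rounded), 0.49 for Fos with Fosb (0.45 and 0.51) and 0.44 for Egr1 with Btg2 (0.39 and 0.47).

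Across the 2 lists, the counts were lower. Of heat shock members with the early-response score, 1 of 4 reached a rho of 0.2, against 18.1% of genes: Dnaja1, at 0.32. With the heat shock score, 5 of 25 early-response members did, against 1.48% of genes: Jun at 0.30, Fosb at 0.26, Dusp1 at 0.23, Klf6 at 0.22 and Mcl1 at 0.20. In the full-precision columns it was 0 of 4 and 0 of 26, where 4.51 and 2.62% of genes reached it. In the rounded columns it was 5 of 6 and 12 of 23, against 19.2 and 9.46%, with Jun at 0.58 and Fosb at 0.50. Hspa1a and Hspa1b passed the 10% filter only there, and of the 4 heat shock members measured in both formats 3 reached 0.2 in the rounded columns. Without the cells numbered 449 to 544 it was Dnaja1 alone of 4 heat shock members (27.9% of genes), and Mcl1 and Ppp1r15a of 26 early-response members (11.5%). Jun then stood at 0.09 and Fosb at 0.03 with the heat shock score.

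**Figure D4:**
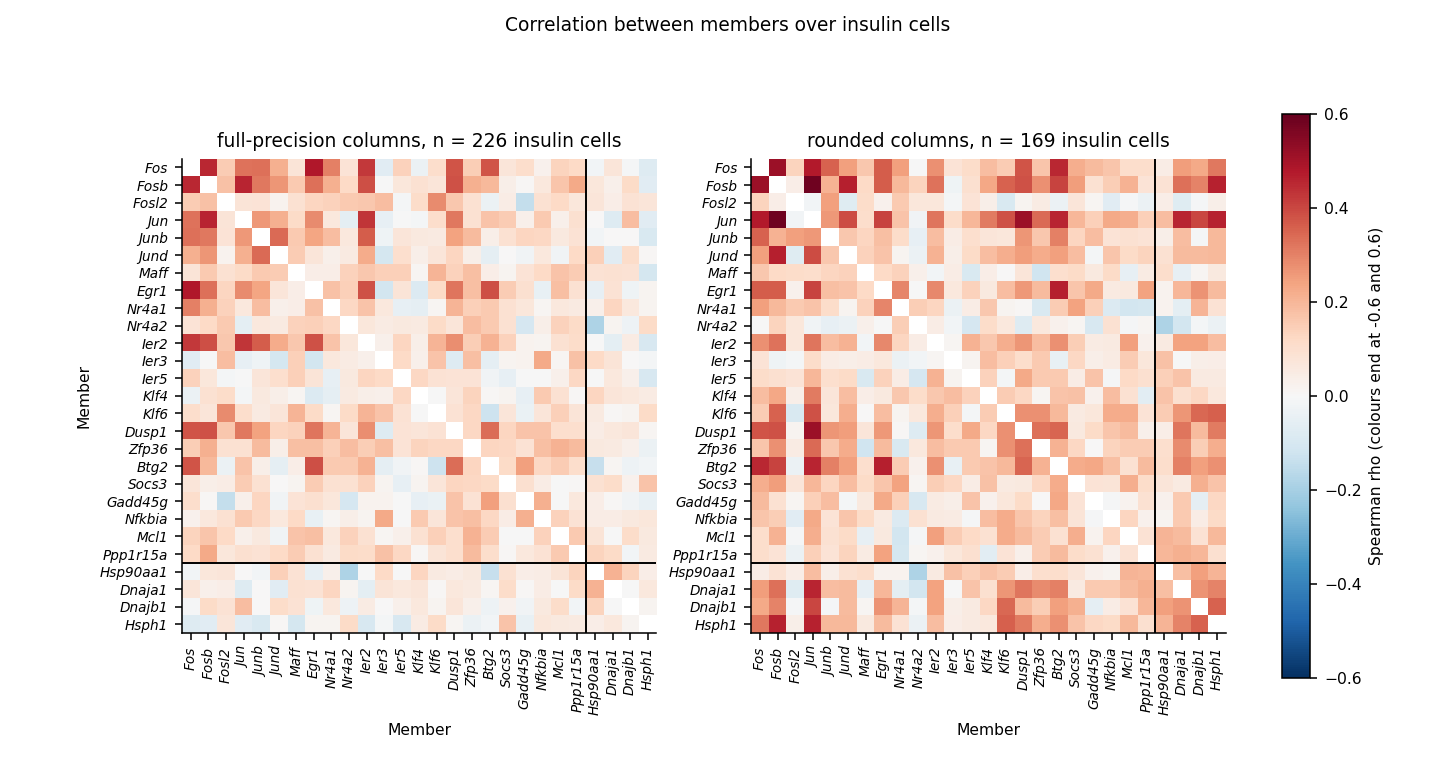
Spearman's rho between pairs of members over insulin cells, as colour from -0.6 (blue) to 0.6 (red), for the 23 early-response and 4 heat shock members at 1 RPKM or more in at least 10% of insulin cells of both formats, in the full-precision columns (left) and the rounded columns (right). Black lines part early-response from heat shock members. The block where the 2 lists cross holds 0 of 92 pairs at 0.2 or more at full precision and 26 of 92 in the rounded columns. No share over all pairs of genes was computed.

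The formats also differed pair by pair, over the 23 early-response and 4 heat shock members (Hsp90aa1, Dnaja1, Dnajb1 and Hsph1) that passed the 10% filter in both. At full precision, 42 of 253 early-response pairs and 0 of 92 pairs across the lists had a rho of 0.2 or more. In the rounded columns it was 65 of 253 and 26 of 92. No share over all pairs of genes was computed. Among all genes, a rho of 0.2 with a score was also more frequent in the rounded columns. It was 19.2 against 4.51% with the early-response score and 9.46 against 2.62% with the heat shock score. Hspa1a was at 1 RPKM or more in 8 of 226 insulin cells at full precision, too few for a correlation there. In the rounded columns its rho was 0.53 with Jun, 0.48 with Fosb, 0.18 with Egr1 and 0.78 with Hspa1b, with which it shares reads. Of the 39 insulin cells with Hspa1a, 29 were numbered 449 to 512, where the medians of Jun and Fosb were also highest. The part of these runs in the pair values was not tested. With the rest of their own list, 2 of 4 heat shock members reached 0.2 over all insulin cells (Dnajb1 and Hsph1), against 1.48% of genes with the heat shock score. It was 0 of 4 at full precision (2.62%), 6 of 6 in the rounded columns (9.46%) and 0 of 4 without the numbers 449 to 544 (11.5%). The 6 include Hspa1a and Hspa1b, which passed the 10% filter only in the rounded columns and share reads. Of the 4 members measured in both formats, 4 reached 0.2 in the rounded columns.

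Further genes of both pathways were taken from lists of 46 early-response and 30 heat shock genes. Of the measured further early-response genes, 23 of 36 had a rho of 0.2 or more with the early-response score, against 18.1% of genes. It was 21 of 38 at full precision (4.51%) and 15 of 31 in the rounded columns (19.2%). Nfkbiz, an atypical inhibitor of NF-kappa B, was highest at 0.38, followed by the antiproliferative Btg1 at 0.37, and by the repressor Nfil3 and the pseudokinase Trib1 at 0.34. Of the further heat shock genes, 8 of 26 reached 0.2 with the heat shock score (1.48% of genes), 5 of 27 at full precision (2.62%) and 13 of 26 in the rounded columns (9.46%). They were led by the constitutive chaperones Hspa8 and Hsp90ab1 at 0.30 and by Cacybp at 0.28 and the mitochondrial chaperonin Hspd1 at 0.25. Among all 6681 genes ranked by the lower rho of both column formats, those most like the early-response score were Ktn1 and Ptprs, both at 0.31, H3f3b at 0.30 and Kmt2e at 0.29. For the heat shock score the highest lower rho was 0.27 (Gm12346), followed by Gm6210 and Gm5844 at 0.26 and Rps13 at 0.25. Cct5, a subunit of the cytosolic chaperonin, came next at 0.24.

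Summed markers of cell types were also set against both scores over all insulin cells. With the early-response score, rho was 0.27 for beta and ductal, 0.23 for alpha, 0.21 for PP, 0.17 for stellate, 0.14 for delta, 0.01 for macrophage, 0.01 for endothelial and -0.17 for acinar markers. With the heat shock score it was between -0.18 (acinar) and 0.22 (alpha). In the rounded columns it was 0.39 and 0.33 with the early-response and heat shock scores for alpha, 0.37 and 0.34 for beta, -0.32 and -0.34 for acinar and 0.15 and 0.28 for stellate markers. At full precision no list passed 0.2 with either score, the highest being ductal markers at 0.19. The part of these markers in the scores was not tested.

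The other hormone groups were then set against the insulin cells, which all 3 comparisons share. A member was counted when its mean RPKM, plus 1, differed by 2-fold or more, and only if its mean was at least 1 RPKM in either group. These groups are small, and a single cell can carry a mean, so a ratio alone may rest on few cells. The share of summed RPKM taken by the 5 hormone genes differed, with medians of 45.1% in insulin, 43.3% in glucagon, 17.1% in somatostatin and 46.7% in pancreatic polypeptide cells, and RPKM of the other genes depends on it.

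Glucagon cells held as many early-response members as insulin cells, a median of 14 of 31, and a similar early-response score, 2.19 against 2.20. By the mean, 8 of the 29 early-response members measured were 2-fold or more higher, against 10.7% of 12665 genes, and 0 were lower, against 22.6%. Over all settings run, the members of both lists past 2-fold ranged from 4 to 8 higher and from 0 to 6 lower. Fosb, with a median of 2.32 RPKM against 8.00 in insulin cells and a highest cell of 848, had a log2 ratio of 1.38, but -2.02 in the full-precision columns. Zfp36, with a median of 22.8 RPKM against 4.81, had 1.11, but -0.24 at full precision. Cells numbered 449 to 544 made up 30.3% of glucagon and 14.9% of insulin cells, and without them Fosb stood at -0.83. The median log2 ratio was -0.07 over the 29 early-response members, 0.03 over 6 heat shock members and -0.20 over all genes.

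Jun and Klf4 kept 2-fold or more in all 10 alternatives run. Jun went from 0.53 through a median of 50.4 to 376 RPKM in glucagon cells, and 28 of 33 lay above the median insulin cell, at 10.0 RPKM. The groups overlapped, and the log2 ratio of the means was 1.32 (1.27 at full precision, 1.24 rounded, 1.39 without the numbers 449 to 544). Klf4, a zinc finger factor, was at 1 RPKM or more in 15 of 33 glucagon cells (45.5%, 28.1 to 63.6) against 67 of 395 insulin cells (17.0%, 13.4 to 21.0). Its highest glucagon cell had 176 RPKM against 269 in insulin cells, both medians were 0, and the log2 ratio was 2.89 (2.12, 3.61 and 1.97). With every cell thinned to 250000 reads, Klf4 had a read in 43.8% of glucagon and 18.9% of insulin cells, against 50.0 and 27.4% unthinned. Egr2 (log2 ratio 2.50) and Myc (2.37) rested on 6 and 5 of 33 cells at 1 RPKM or more, with a highest Myc cell of 459 RPKM.

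Fos itself was not higher in glucagon cells: it went from 7.03 through 209 to 1425 RPKM, 11 of 33 cells lay above the insulin median, and the log2 ratio was -0.58. That ratio was past 2-fold lower at full precision (-1.50) and without the numbers 449 to 544 (-1.24), and -0.12 in the rounded columns. Dusp1 had a median of 22.5 RPKM against 53.2 and a log2 ratio of -0.93. None of the 6 heat shock members measured passed 2-fold in either direction over all columns, but 2 of them did so within a format. Hspa1b, at 1 RPKM or more in 3 of 33 glucagon cells, had a log2 ratio of 0.03, with 2.38 at full precision, -1.71 rounded and 2.16 without the numbers 449 to 544. Dnajb1, in 10 of 33, had 0.06, with -2.45 at full precision and 0.22 rounded. Hsp90aa1 had a median of 139 RPKM against 117 and a log2 ratio of 0.04. Of the further genes, 4 early-response ones were higher and 6 lower of 40, and 2 heat shock ones higher and 5 lower of 29. Over all genes, 10.7% were higher and 22.6% lower.

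**Figure D5:**
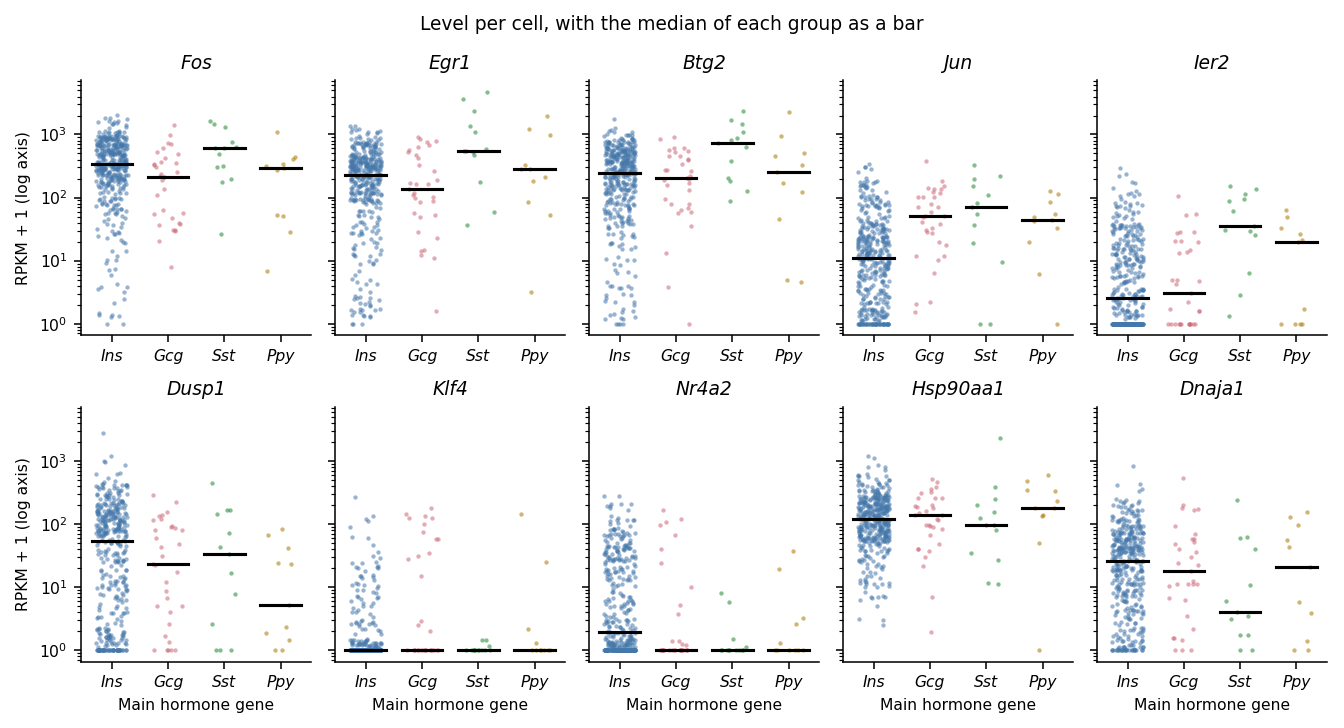
RPKM + 1 (log axis) of 10 members in each cell of the 4 groups (insulin, n = 395; glucagon, n = 33; somatostatin, n = 13; pancreatic polypeptide, n = 11), with the group median as a bar. Jun medians are 10.0 RPKM in insulin cells and 50.4 in glucagon cells, Egr1 and Btg2 are highest in somatostatin cells at medians of 555 and 739 RPKM, and Dusp1 is lowest in pancreatic polypeptide cells at 4.25 RPKM.

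Somatostatin cells had the highest median early-response score, 2.93, with a median of 15 of 31 members at 1 RPKM or more. By the mean, 10 of the 30 early-response members measured were 2-fold or more higher, against 20% of 12675 genes, and 5 lower, against 29.1%. The median log2 ratio was 0.73 over those 30 and -0.11 over all genes. Jun, Egr1, Ier2 and Btg2 stayed 2-fold or more higher in each of the 9 alternatives that could be run, the rescaling without hormone genes among them. Nr4a2 stayed lower in the 8 that gave it a ratio.

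Egr1 went from 35.7 through a median of 555 to 4741 RPKM in the 13 somatostatin cells. Of these, 10 lay above the median insulin cell, at 228 RPKM, and the log2 ratio was 2.12 (1.01 at full precision, 2.79 rounded). Btg2 went from 86.1 through 739 to 2332 RPKM, with 9 of 13 above the insulin median of 243 and a log2 ratio of 1.42. Ier2, a nuclear protein of the early response, went from 0.30 through 34.7 to 151 RPKM, with 12 of 13 above the insulin median of 1.57 and a log2 ratio of 1.97. Jun went from 0 through 69.7 to 324 RPKM, with 10 of 13 above the insulin median and a log2 ratio of 1.77. In all 4 genes the ranges of the groups overlapped. Fos, from 25.1 through 606 to 1654 RPKM, did not pass 2-fold, with a log2 ratio of 0.59.

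In the other direction, Nr4a2 was at 1 RPKM or more in 2 of 13 somatostatin cells (15.4%, 1.92 to 45.5) against 49.6% of insulin cells, and its log2 ratio was -3.34. Thinned to 250000 reads, it had a read in 23.1% of somatostatin and 53.2% of insulin cells, against 30.8 and 67.0% unthinned. Klf2 and Klf4 were at 1 RPKM in 0 of 13 somatostatin cells, a count that leaves room for a share as high as 23.1%, and Klf2 was listed at 0 in all 13. Dusp6, at 1 RPKM or more in 6 of 13 with a highest cell of 365 RPKM, had a log2 ratio of 2.65, which was 3.71 at full precision and -1.97 in the rounded columns. Of the heat shock members, 3 of 6 were 2-fold or more lower (Hspa1a, Hspa1b and Dnajb1), against 29.1% of genes. Their log2 ratios were -2.48, -1.41 and -2.46, each with 1 of 13 cells at 1 RPKM or more. No somatostatin cell was numbered 449 to 544, and without insulin cells of those numbers these ratios were -0.41, 0.63 and -1.45. Further genes went both ways, 11 early-response ones higher and 12 lower of 41, and 5 heat shock ones higher and 6 lower of 28. Over all genes, 20% were higher and 29.1% lower.

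Among the 11 pancreatic polypeptide cells, a median of 14 of 31 early-response members was at 1 RPKM or more, and the median scores were 2.46 and 2.11. Of 29 early-response members measured, 9 were 2-fold or more higher, against 16% of 12721 genes, and 5 lower, against 33.2%. Of 7 heat shock members, 2 were higher (Hspb1 and Dnajb1), against the same 16% of genes. The median log2 ratio was 0.63 over the early-response and 0.60 over the heat shock members, and -0.39 over all genes. The sign turned in at least 1 alternative for 6 of the 11 members that were higher: Maff, Nr4a1, Ier3, Klf4, Dusp6 and Dnajb1.

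Dusp1 stayed lower and Klf6 higher by 2-fold or more in all 10, and Hspb1 higher in the 9 that gave it a ratio. Dusp1 went from 0 through 4.25 to 84.1 RPKM, 2 of 11 cells lay above the insulin median of 53.2, and the log2 ratio was -2.25. Klf6 went from 0 through 2.34 to 261 RPKM, with 8 of 11 above the insulin median of 0.47 and a log2 ratio of 2.12. Hspb1 was at 1 RPKM or more in 3 of 11 cells (27.3%, 6.02 to 61.0) against 3.80% of insulin cells, with a highest cell of 155 RPKM. Its log2 ratio of 3.51 was 1.06 without the numbers 449 to 544, which hold 1 of the 11 cells. Egr2, a zinc finger factor, was at 1 RPKM or more in 5 of 11 cells (45.5%, 16.7 to 76.6) against 5.57% of insulin cells, and had a read in 45.5% against 6.14% after thinning. Of the further genes, 13 early-response ones were higher and 7 lower of 42, and 3 heat shock ones higher and 6 lower of 29. Over all genes, 16% were higher and 33.2% lower.

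Across the 4 groups, the order of median Fos was somatostatin (606), insulin (334), pancreatic polypeptide (288) and glucagon cells (209 RPKM), and in every group the lowest and highest cells spanned the medians of all others. For Hsp90aa1 the order was pancreatic polypeptide (181), glucagon (139), insulin (117) and somatostatin cells (97.0 RPKM), again with overlapping ranges. Hspa1a was at 1 RPKM or more in 3 of 33 glucagon (9.09%), 1 of 13 somatostatin (7.69%) and 1 of 11 pancreatic polypeptide cells (9.09%). In insulin cells it was 39 of 395 (9.87%), and the other counts are too small to order the groups. Cells numbered 449 to 544 made up 30.3% of glucagon, 14.9% of insulin, 9.09% of pancreatic polypeptide and 0% of somatostatin cells. Outside those numbers Hspa1a was at 1 RPKM or more in 2.38% of insulin cells.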

How the data were processed

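RNA of single islet cells was amplified with SMARTer chemistry and made into libraries with Nextera XT, per the labels' protocols. RPKM values per Entrez gene were deposited by the authors. CASAVA 1.8.2, FastQC and the build GRCm38 (mm10) are named in the submitters' processing notes, while an aligner or counter is not given in the sources used here. The authors wrote 359 columns of RPKM at full precision and 263 rounded to 4 decimals.

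Symbols came from RefSeq and matched 39725 of 44448 genes. Whole reads were recovered from RPKM steps for 23072 of 23143 genes and used for depth and thinning only. Ratios were log2((mean RPKM + 1)/(mean RPKM + 1)), which understates the change of low genes. Cells are not replicates, so no p-value or standard error was computed. Shares have exact Clopper-Pearson 95% intervals. No columns were identical (highest correlation 0.983). The members and lists were chosen with earlier results of these data known, and all 38 members, genes of the further lists and the genes most like each score could be named. Python 3.11.15, pandas 2.3.3 and scipy 1.17.1 were used, and the code for ratios and correlations was tested on simulated data. Alternatives covered the pseudocount, filters, column format, rescaling, depth and title numbers.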

Additional observations from a re-analysis of the deposited data

Results flagged for a closer look

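Members were also measured in cells that entered none of the 4 groups. In the 141 passing cells with mixed hormones, the summed RPKM of the 38 members had a median of 2131 (153 to 9379), against 1561 in insulin cells. Fos was at 1 RPKM or more in 140 of them and Hspa1a in 12 (8.51%). In the 29 cells under 1000 genes the summed RPKM had a median of 12.0 (0.869 to 3102), and Fos was at 1 RPKM or more in 16. The median share of mitochondrial genes in their summed RPKM was 89.7%.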

How the results depend on the processing

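The correlation of the scores (0.32) was 0.080 at full precision, 0.52 in the rounded columns and 0.18 centred within runs of title numbers, and the shared top 25% (39.4%) was 62.8% in the rounded columns. Of 14 alternatives for each, 11 and 13 stayed closer. The 11, each within 0.1 of 0.32, include ranks adjusted for the number of detected genes and the column format. Early members with a rho of 0.2 (5) were 2 with 3000 genes per cell, 0 at full precision, 12 rounded, 0 centred and 2 without the numbers 449 to 544. Heat shock members (1) were 2 rescaled without hormone genes, 2 at a 99% hormone share, 2 with pseudocount 0.1, 0 at full precision, 5 rounded and 0 centred.

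Past 2-fold in glucagon cells, 8 members higher became 4 with means of logs and 4 with pseudocount 10. The 0 lower became 2 rescaled, 1 with 3000 genes, 6 at 99%, 4 rounded, 5 at full precision, 3 with pseudocount 0.1 and 2 without the numbers 449 to 544. In pancreatic polypeptide cells, 11 higher became 5 with means of logs and 2 with pseudocount 10, and 5 lower became 9 rescaled, 9 at 99%, 9 at full precision, 2 with means of logs and 1 with pseudocount 10. In somatostatin cells, 8 lower became 2 with means of logs, 15 rounded, 5 at full precision and 2 with pseudocount 10, and 10 higher ranged from 7 to 14. The causes were not tested. The 99% share left too few somatostatin cells and was not run. Members at 1 RPKM in at least 50% of a group's cells ranged from 13 to 22. Leaving out numbers, centring within runs and the top 25% within each format were chosen after seeing the data. No paired analysis was possible because the labels name no animal or chip by which cells could be paired, and no test was run.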
